A study of Bos taurus with 30 samples.

Results

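The 7 inflammatory chemokine ligands described here are CCL2, CCL3, CCL5, CXCL8, CXCL5, GRO1 and CXCL2, out of 3269 genes that the array's annotation names. Each was read by a pair of duplicate spots, 14 of the 44407 features, and all 7 were bright enough to be among the 2403 genes tested. The array's annotation calls CXCL8 IL8, CXCL5 CXCL6, GRO1 CXCL1 and CCL3 CCL3L1. Their accessions give the current names used here. The ligands were chosen by name as a family, with results of these arrays already known, in particular the difference between prednisolone and control animals at T2, at which CCL2, CCL3 and GRO1 had passed the test. Values for that contrast are therefore a description, with no p-value.

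Chemokines are small secreted proteins that draw white blood cells along a gradient to a site of injury or infection. The CC ligands among them act mainly on monocytes and T cells: CCL2 attracts monocytes through CCR2, while CCL3 and CCL5 attract T cells, monocytes and natural killer cells. The CXC ligands CXCL8, CXCL5, GRO1 and CXCL2 carry an ELR motif and attract neutrophils through CXCR1 and CXCR2. Transcription of most of these genes is switched on by NF-kB and AP-1 downstream of TNF, IL1 and Toll-like receptors. The glucocorticoid receptor, which prednisolone activates, is a known repressor of that route.

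RNA of lymphocytes from 15 cattle was hybridised to single-colour oligonucleotide arrays, 1 animal per array. The 8 prednisolone animals had received this synthetic glucocorticoid by mouth, 30 mg per animal each day over 35 days, and the 7 control animals are labelled as controls. Both groups were sampled at T1 and at T2, giving 4 groups: prednisolone T2 and prednisolone T1 with 8 arrays each, and control T2 and control T1 with 7 arrays each. The labels do not state where either time lies relative to the dosing, nor the breed, age or sex of the animals, and they place sample collection at the slaughterhouse. The same dosing text is attached to the control samples, so the treatment label alone separates the groups. The arrays measured whole cell preparations, in which fewer cells of a type and less RNA per cell cannot be told apart.

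Each array held a value for 34506 to 38801 features, and its median correlation with the other arrays of its group was 0.9747 to 0.9894. The number of arrays limits the precision. The lymphocyte markers CD3E and CD79A were bright in all groups, while others were dimmer. CD5 of T cells had group medians from 8.8 to 14.7, and CR2 of B cells from 146.1 to 261.4. CD3E, part of the T cell receptor complex, had median intensities of 26579.7 in prednisolone T2, 25408.5 in prednisolone T1, 23067.2 in control T2 and 19747.9 in control T1 animals. CD79A, part of the B cell receptor, had medians of 16545.7, 17283.5, 16480.9 and 14623.5 in the same order of groups. The preparations also carried strong signal of some genes of other blood cells. Among them were S100A12 of monocytes and neutrophils, with group medians from 147260.6 to 180519.1, and CD14 of monocytes, from 2734.2 to 13764.3. Other listed monocyte markers were dim, such as ITGAM, with group medians from 37.8 to 58.1, and FCGR1A, from 3.4 to 10.4. On 5 control arrays, those of animals 20, 22, 23 and 24 at T1 and of animal 23 at T2, over 5% of duplicate spot pairs differed by more than 0.5 log2 units. At T1, prednisolone animals 28 and 32 stood apart from the other prednisolone animals in the ligands, and values without them are given where they change a call or a value markedly.

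CCL2 ran over the widest range of the 7 ligands. Its intensity, scaled to the 75th percentile of each array, was 8.1, 8.4, 10.5, 32.3 and 169.8 in the 5 prednisolone T2 animals that had a value. The other 3 prednisolone T2 animals, 25, 26 and 30, were null on both spots. In prednisolone T1 animals CCL2 had a lowest intensity of 251.5, a median of 3008.6 and a highest of 26641.5. Control animals lay lower than that median at both times: 97.5 to 942.3 with a median of 198.7 at T2, and 155.7 to 1413.9 with a median of 252.0 at T1. All 5 prednisolone T2 values were below every prednisolone T1 value, and 4 of them, all but animal 27, were also below every control value. At T1, 5 of the 8 prednisolone animals exceeded the highest control, and animals 25, 29 and 31 lay within the control range.

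A null spot is one for which the authors deposited no value. Null CCL2 spots numbered 7 of 16 in prednisolone T2, 1 of 16 in prednisolone T1, 1 of 14 in control T2 and 1 of 14 in control T1 arrays. Prednisolone T2 animals 25 and 26 also had the most null cells of their group over all features, 21.9% and 21.72%. Animal 30 had 16.64%, and control T2 arrays had 14.8% to 22.3%. At T2, 4 of 8 prednisolone and 1 of 7 control animals had a null CCL2 spot. At T1, 1 of 8 prednisolone and 1 of 7 control animals had one (exact two-sided Fisher test, p = 1.0, not adjusted). No animal was null on both spots at T1, so the same test on such animals had a fixed outcome. The other 6 ligands had no null spot on any array. Null cells were frequent among dim features of the whole table, 29.6% where the median intensity was at most 100, and rare among brighter ones, 1.7%. A null cell need not mean absent RNA, since the rule behind null cells is not given. What the null CCL2 spots say about the CCL2 level was not tested. Animals 25 and 26, null for CCL2 at T2, had the third and second highest CXCL5 of the prednisolone T2 group, at 564.4 and 686.8.

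CCL3 was low and tightly grouped in prednisolone T2 animals, with a lowest intensity of 319.8, a median of 547.9 and a highest of 639.3. In prednisolone T1 animals it had a lowest of 429.7, a median of 1482.5 and a highest of 9026.8, in animal 28. Control T2 animals had 599.4, 841.9 and 2624.2 as lowest, median and highest intensity, and control T1 animals had 642.9, 1501.2 and 3109.2. Prednisolone T2 and control T2 overlapped through 1 animal on each side, prednisolone animal 30 at 639.3 and control animal 24 at 599.4. The log2 standard deviation over animals was 0.30 in prednisolone T2 (n = 8), 1.27 in prednisolone T1 (n = 8), 0.72 in control T2 (n = 7) and 0.81 in control T1 (n = 7).

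CCL5, which T cells and natural killer cells make themselves, was strong on every array. Prednisolone T2 animals had a lowest intensity of 11155.6, a median of 18956.8 and a highest of 26720.3, and prednisolone T1 animals 7942.8, 27869.0 and 41663.4. Control T2 animals had 15231.8, 28902.1 and 45568.1, and control T1 animals 21628.7, 34476.7 and 60492.9. The medians followed the order prednisolone T2, prednisolone T1, control T2 and control T1 from low to high, and the ranges of neighbours in that order overlapped.

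**Figure D1:**
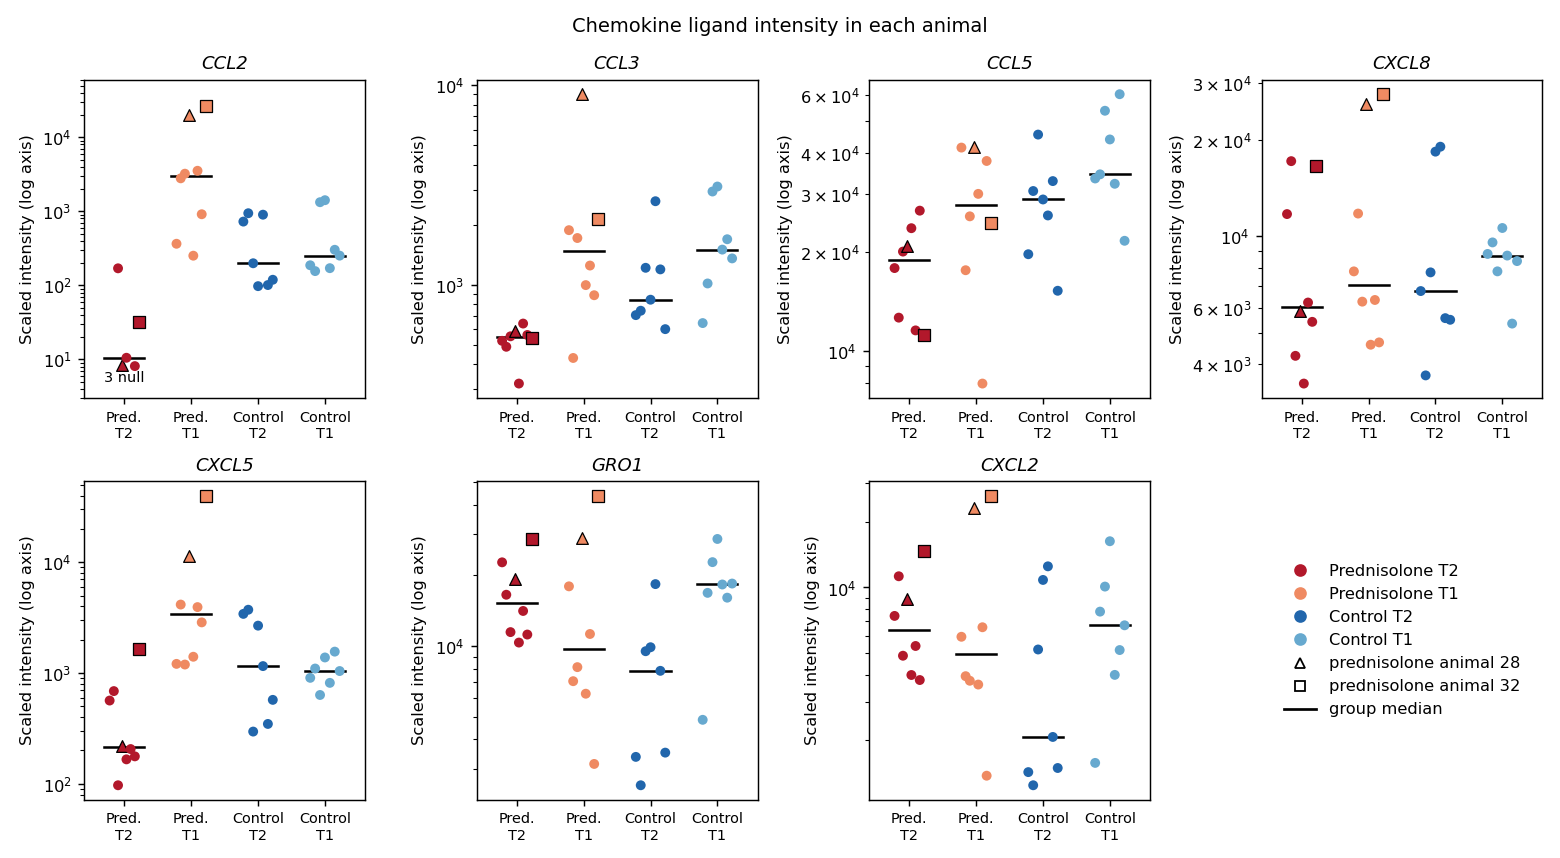
Scaled intensity of each ligand in every animal (log axis), by group, with prednisolone animals 28 (triangle) and 32 (square) marked and a line at the group median. The CCL2 median of prednisolone T2 is over the 5 animals with a value, and 3 animals are null. CCL2 and CXCL5 reach their highest values, 26641.5 and 39702.6, in prednisolone T1 animal 32.

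Among the neutrophil attractants, CXCL5 followed a pattern close to that of CCL2. Prednisolone T2 animals had a lowest intensity of 97.0, a median of 212.9 and a highest of 1653.4. Prednisolone T1 animals had 1192.8, 3400.7 and 39702.6. Control T2 animals had 296.1, 1154.8 and 3726.0, and control T1 animals 633.5, 1042.1 and 1559.8. Of the prednisolone T2 animals, only animal 32 lay inside the prednisolone T1 range. The log2 standard deviation of control animals was 1.56 at T2, against 0.44 in the same animals at T1 (n = 7 at each time).

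CXCL8, the classical neutrophil attractant, had medians close to each other in the 4 groups. Its lowest, median and highest intensities were 3483.8, 6040.2 and 17151.9 in prednisolone T2, 4602.0, 7063.0 and 27712.2 in prednisolone T1, 3693.8, 6760.7 and 19022.4 in control T2, and 5354.5, 8718.1 and 10623.0 in control T1 animals. In the first 3 of these groups 2 or 3 animals stood above the rest, while the highest control T1 animal was 1.98 times the lowest. All 4 ranges overlapped.

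GRO1 stood higher in prednisolone T2 than in control T2 animals. It had a lowest intensity of 10346.8, a median of 15331.0 and a highest of 28515.0 in prednisolone T2, and 3141.4, 9692.7 and 43687.4 in prednisolone T1 animals. Control T2 animals had 2547.8, 7838.9 and 18372.8, and control T1 animals 4845.3, 18303.2 and 28620.3. Of the 7 control T2 animals only animal 22 lay inside the prednisolone T2 range. CXCL2, a near relative of GRO1 that lies close to it in the genome, had medians of 6410.0, 4944.0, 2075.3 and 6718.0 in prednisolone T2, prednisolone T1, control T2 and control T1 animals. Its ranges were 3777.0 to 14640.3 in prednisolone T2, 1380.4 to 26213.5 in prednisolone T1, 1248.3 to 12494.5 in control T2 and 1579.5 to 16270.4 in control T1 animals, and they overlapped. As a ratio of highest to lowest intensity they were wider than those of GRO1 in each group, for example 3.88 against 2.76 in prednisolone T2.

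By the gene order of the RefSeq annotation of cattle, the 4 CXC ligands lie in 1 cluster with PPBP, PF4 and CXCL3, and the 3 CC ligands share another chromosome. CXCL2 is separated from GRO1 by CXCL3 alone. These are similar sequences, and no probe sequence was used here, so cross-hybridisation between the relatives was not tested.

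The comparison at T1 set prednisolone against control animals at the first sampling. By limma on log2 intensities, with Benjamini-Hochberg adjustment over the 2403 genes, none of the 7 ligands passed an adjusted p of 0.05, in a comparison in which 0.333% of all genes did (3 higher and 5 lower). The count of all genes was 231 in 1 fit of all groups with the animal as a block, and 246 in that fit without the block. Each animal has 1 array at T1, so calls gained in the fit of all groups cannot be credited to pairing. The count was 0 to 109 when single animals were left out, with no ligand passing in any of these fits. At an unadjusted p of 0.05, 522 genes and 2 ligands passed. These were CXCL5, with a log2 difference of 1.89 (SE 0.631, adjusted p = 0.108, 8 of 8 prednisolone animals above the control mean), and CCL2, with 2.80 (SE 0.959, adjusted p = 0.113, 7 of 8 above). CCL5 differed by -0.58 (SE 0.327, adjusted p = 0.312) and GRO1 by -0.50 (SE 0.510, adjusted p = 0.582). For CXCL8, CXCL2 and CCL3 the differences were 0.16, 0.01 and -0.01, with 95% intervals of -0.64 to 0.96, -1.28 to 1.29 and -1.11 to 1.08, so that for CXCL2 and CCL3 a log2 difference of 1 either way lies inside the interval. Over the 7 ligands the median difference was 0.01, beside 0.03 over all genes.

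Animals 28 and 32 carried much of the T1 values. Without them CCL2 differed by 1.73 (SE 0.761, limma adjusted p = 0.331) and CXCL5 by 1.06 (SE 0.335, adjusted p = 0.225) between prednisolone and control animals. GRO1 differed by -1.05 (SE 0.419, adjusted p = 0.299), over 1.5 times the value with them. The small differences of CXCL8 and CXCL2 changed sign, to -0.34 and -0.67. CD14 stood in the same 2 animals at 30861.8 and 50170.0, against 10305.4 to 14598.0 in the other 6 prednisolone T1 animals.

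At T2, 18.6% of all genes passed in either direction, and 3 of the 7 ligands did. Since this contrast chose the ligands, nothing is read from that count. CCL2 differed by -3.76 on the log2 scale (SE 0.885), over the 5 prednisolone animals with a value, all below the control mean. CXCL5 differed by -1.87 (SE 0.692), CCL3 by -0.95 (SE 0.260) and CCL5 by -0.65 (SE 0.242), with 7, 8 and 8 of the 8 prednisolone animals below the control mean. CXCL8 differed by -0.09 (SE 0.426). GRO1 and CXCL2 lay the other way, at 1.32 (SE 0.386) and 1.05 (SE 0.526), with 8 of 8 prednisolone animals above the control mean for each. The median over the 7 ligands was -0.65, beside 0.04 over all genes. The differences without animals 28 and 32 were -3.54 for CCL2, -2.19 for CXCL5, -0.99 for CCL3, 1.13 for GRO1 and 0.80 for CXCL2. The count of 3 was 2 in 1 fit of all groups with the animal as a block, 1 without animals 28 and 32, and 2 to 4 when single animals were left out.

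**Figure D2:**
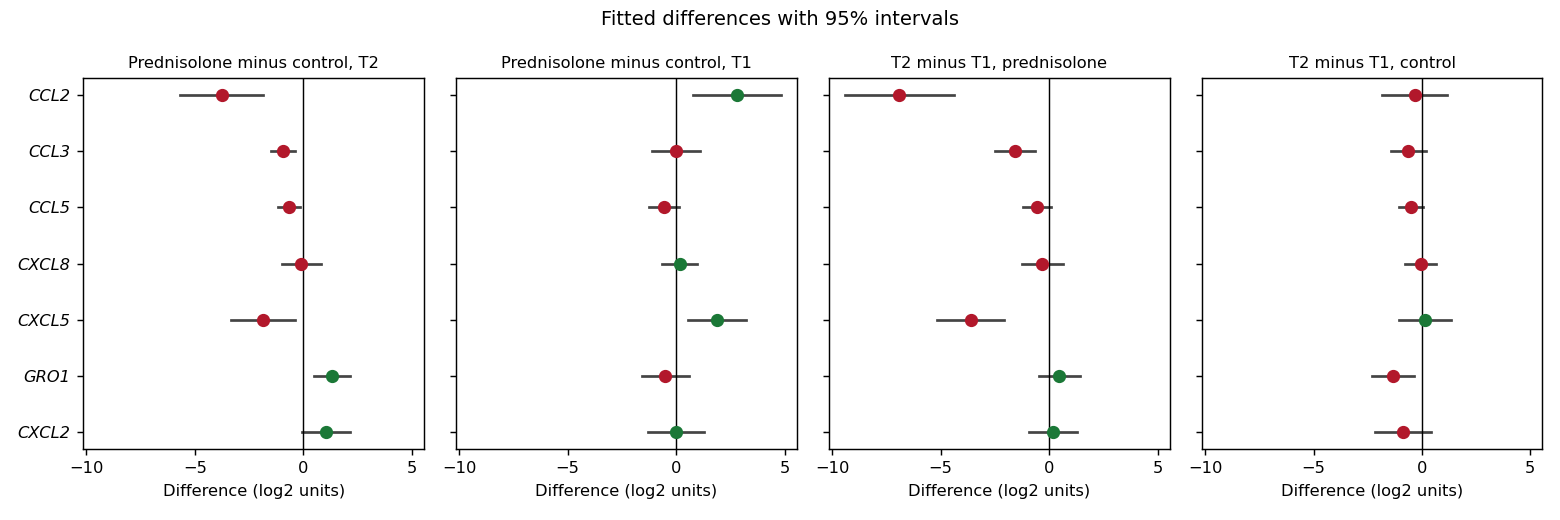
Fitted log2 differences of the 7 ligands with 95% intervals, for prednisolone minus control at T2 and T1 and for T2 minus T1 in prednisolone and control animals. Green points lie above 0 and red points below. CCL2 and CXCL5 lie at -3.76 and -1.87 at T2 and at 2.80 and 1.89 at T1.

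Between the samplings, 38.0% of all genes changed in prednisolone animals (527 higher and 387 lower at T2 by limma). Of the 7 ligands, 3 fell at T2 relative to T1. This comparison shares its prednisolone T2 arrays with the contrast that chose the ligands, so it is not independent of the choice. CCL2 fell by 6.90 log2 units (adjusted p = 0.000525, SE 1.174), over the 5 animals with a value at T2, while the 3 null animals entered at T1 only. The size of this fall rests on spots near background: it was -8.04 with null cells set to the floor of 2.52 and -6.39 with a floor of 16. CXCL5 fell by 3.62 (SE 0.730, adjusted p = 0.00111), and CCL3 fell by 1.56 (SE 0.432, adjusted p = 0.00926). These fits treated the 2 arrays of an animal as independent. With the animal as a block, CCL2 differed by -7.31 (SE 1.077, adjusted p = 0.00242). CXCL5 and CCL3 kept their differences (SE 0.422 and 0.368, adjusted p = 0.000234 and 0.00808). Of all genes, 604 were then higher and 419 lower at T2. CCL5 differed by -0.56 (SE 0.311, adjusted p = 0.164), and with the animal as a block it passed at the same difference (SE 0.180, adjusted p = 0.0296), as it did when animal 30 was left out. CXCL8 differed by -0.32 (95% interval -1.27 to 0.63), CXCL2 by 0.16 (-0.95 to 1.27) and GRO1 by 0.47 (-0.48 to 1.41).

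The animals' own differences, T2 minus T1, showed the same split. CXCL5 was lower at T2 in 8 of 8 prednisolone animals, with log2 differences from -5.69 in animal 28 to -1.10 in animal 25. CCL2 was lower in 5 of the 5 with both values, at -11.22 to -4.25. CCL3 and CCL5 were each lower in 7 of 8, the exceptions being animal 26 for CCL3 and animal 30 for CCL5. GRO1 was higher in 6 of 8, and the 2 in which it was lower were animals 28 and 32. Without those 2 animals CCL2 still fell by 5.60 (SE 1.183, limma adjusted p = 0.00772), CXCL5 by 3.11 (SE 0.514, adjusted p = 0.00092) and CCL3 by 1.09 (SE 0.316, adjusted p = 0.0227). The differences of GRO1, CXCL2 and CCL5 were then 0.82, 0.59 and -0.39, and none of these passed.

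In control animals 0% of all genes passed between T2 and T1 by limma, with 242 at an unadjusted p of 0.05 and 3 passing with the animal as a block. None of the 7 ligands passed in either fit. GRO1 differed by -1.35 (SE 0.455, adjusted p = 0.350, unadjusted p = 0.00959) and was lower at T2 in 6 of 7 animals. CXCL2 differed by -0.88 (SE 0.612) and CCL3 by -0.62 (SE 0.373), lower in 6 and 5 of 7 animals. CCL5 differed by -0.50 (SE 0.252, adjusted p = 0.537), close to its value in prednisolone animals, and was lower in 7 of 7. CCL2 at -0.33 (SE 0.703), CXCL5 at 0.14 (SE 0.557) and CXCL8 at -0.06 (SE 0.330) had animals on both sides, 4, 3 and 4 of 7 lower at T2.

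**Figure D3:**
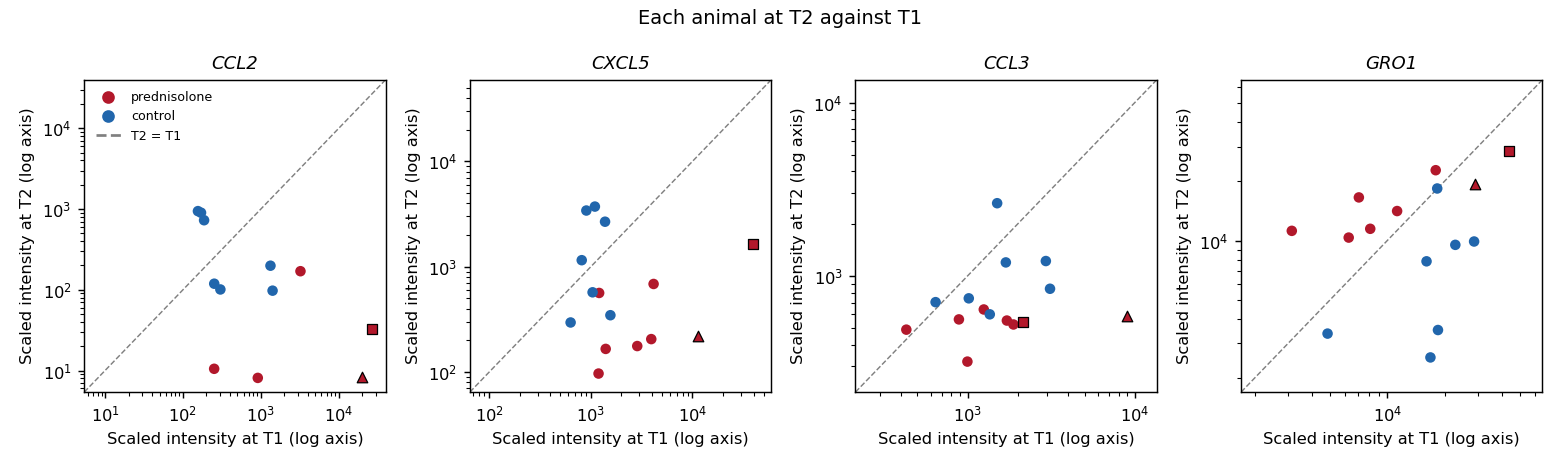
Scaled intensity at T2 (vertical, log axis) against T1 (horizontal, log axis) for each animal, prednisolone red and control blue, for CCL2, CXCL5, CCL3 and GRO1. The dashed line marks equal intensity, the triangle animal 28 and the square animal 32. All 8 prednisolone animals lie below the line for CXCL5, and 6 of 8 lie above it for GRO1.

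The interaction asks whether the difference between prednisolone and control animals was unequal at the 2 times, and 18.1% of all genes passed it by limma. Of the ligands, 2 passed. The difference at T2 minus that at T1 was -6.57 for CCL2 (SE 1.397, adjusted p = 0.00229, 3 null arrays dropped) and -3.76 for CXCL5 (SE 0.974, adjusted p = 0.00908). GRO1 had the largest positive value, 1.82 (SE 0.665, adjusted p = 0.0551), and passed with the animal as a block (SE 0.547, adjusted p = 0.0143). It also passed without animals 28 and 32 (2.18, adjusted p = 0.0269), after quantile normalization (1.92, adjusted p = 0.0457), and when animal 17, 22 or 32 alone was left out. Animals 28 and 32 were singled out by high T1 ligand values, and had the 2 highest GRO1 intensities of prednisolone T1, 28848.6 and 43687.4. Leaving them out lowers the T1 level of GRO1, so passing without them adds no support. For CXCL2 the interaction was 1.04 (SE 0.834, adjusted p = 0.418) and for CCL3 -0.94 (SE 0.600, adjusted p = 0.289). CXCL8 at -0.26 (95% interval -1.47 to 0.95) and CCL5 at -0.07 (-0.93 to 0.80) gave no detectable interaction at this number of arrays. Without animals 28 and 32, CCL2 remained at -5.27 (adjusted p = 0.0185) and CXCL5 at -3.25 (adjusted p = 0.0126). The test contains the T2 difference and is not independent of how the ligands were chosen. The comparisons also share arrays with each other.

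Single animals were high in several ligands at once. In prednisolone T1, animal 32 had the highest intensity of 5 ligands, CCL2, CXCL8, CXCL5, GRO1 and CXCL2, and animal 28 was first or second in 7 of 7. In control T1, animal 21 was first in 5 of 7 ligands, and in control T2, animal 22 was first in 4. The controls with the highest CCL2 at T2, animals 18, 22 and 17 at 942.3, 900.8 and 726.7, were the 3 lowest at T1, at 155.7, 170.6 and 186.7. Animals 18 and 17 also had the highest CXCL5 of control T2, at 3726.0 and 3418.1, and the 2 lowest GRO1 intensities, at 2547.8 and 3366.8. Animal 22 had the highest GRO1 there, at 18372.8.

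**Figure D4:**
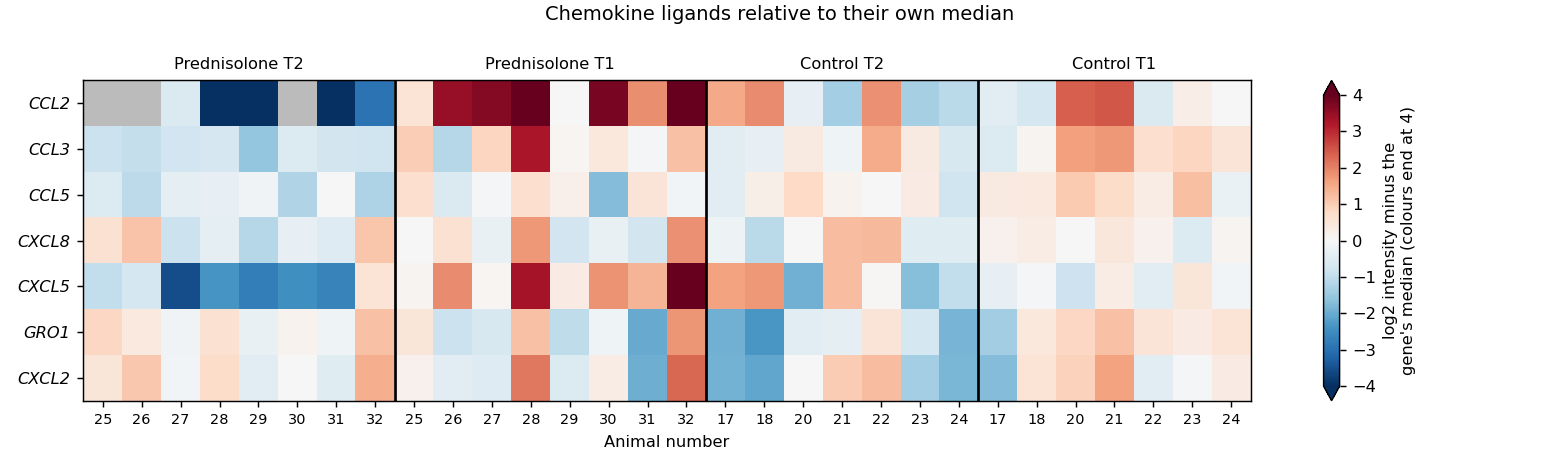
Each ligand's log2 intensity minus its own median over all arrays, for every animal and group, with grey for null CCL2 and colours ending at 4 log2 units. Prednisolone T2 is blue for CCL2 in the 5 animals with a value, and for CCL3 and CXCL5 in nearly every animal. Animals 28 and 32 at T1 are red across most ligands.

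Over the arrays, the ligands fell into loose sets. Among the 21 pairs, after subtracting each group's mean, Pearson's r ran from -0.242 for CCL5 with CXCL5 to 0.933 for GRO1 with CXCL2 (30 arrays). CXCL8 correlated with CXCL2 at 0.793 and with GRO1 at 0.725, and CCL3 with GRO1 at 0.732. CCL2 with CXCL5 had 0.523 over the 27 arrays with a CCL2 value, and 0.334 without the T1 arrays of animals 28 and 32. CCL5 stayed between -0.242 and 0.354 with every other ligand. These values describe arrays that share animals, 2 arrays per animal, and the ligands of an array share its RNA.

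**Figure D5:**
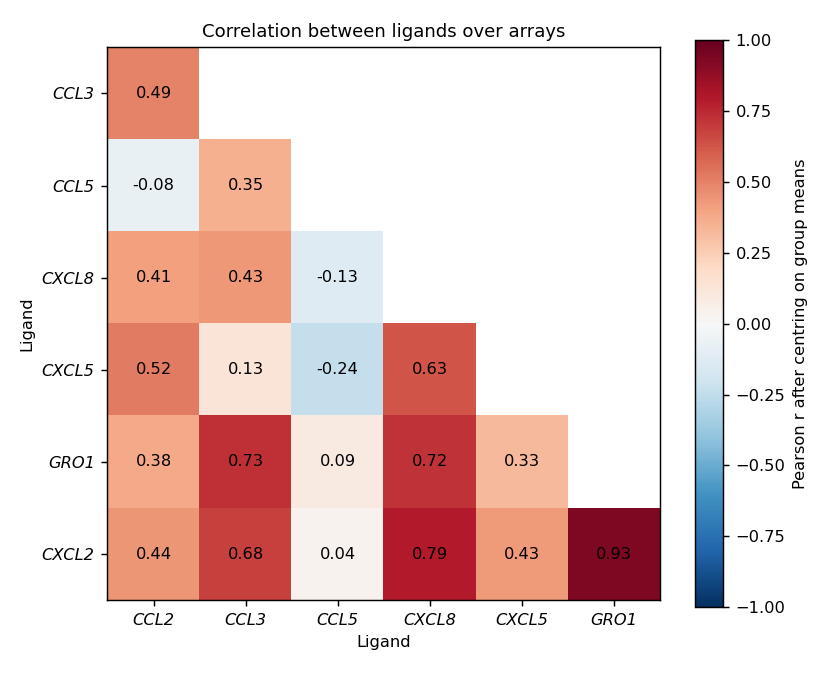
Pearson correlation between ligands over the arrays after centring on group means, with r printed in each square (27 arrays for pairs with CCL2, 30 for the rest). GRO1 with CXCL2 is the strongest pair at 0.93, and CCL5 has the weakest relations.

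Among all genes tested, those most like each ligand over the arrays differed between the sets. CCL2 was most like CD14, the lipopolysaccharide co-receptor of monocytes (r = 0.884, 27 arrays), AGO2 (0.857) and the costimulatory molecule CD86 (0.837). CXCL5 was most like BASP1 (0.905, 30 arrays), CD14 (0.901) and SPP1, which encodes osteopontin (0.838, 27 arrays). CCL3 was most like IL1B (0.930), BCL2A1 (0.909) and IL1A (0.861). GRO1 and CXCL2 were most like each other (0.917), and both had NFKBIZ, a nuclear modulator of NF-kB (0.867 and 0.813), and the transcription factor MITF (0.733 and 0.754) next. CXCL8 was most like CXCL2 (0.741), SOD2 (0.697) and LOC513055 (0.689). CCL5 was most like CA4 (0.724), the cytotoxic granule gene NKG7 (0.716) and SLCO3A1 (0.656). Centred on group means, CD14 correlated with CCL2 at 0.696 and with CXCL5 at 0.793, and IL1B with CCL3 at 0.903.

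Markers of monocytes moved with CCL2 and CXCL5 in part. Of 15 markers listed, 6 were tested, CD14, CD86, ITGAM, MSR1, SIRPA and S100A12, and none of them was at 0. This list and the other gene lists below were chosen with earlier results of these data known. Their p-values are not independent of that choice. CD14 had lowest, median and highest intensities of 2027.3, 2734.2 and 7748.2 in prednisolone T2, 10305.4, 13764.3 and 50170.0 in prednisolone T1, 4162.5, 7510.8 and 14025.6 in control T2, and 4285.2, 6459.8 and 10852.3 in control T1 animals. In prednisolone animals at T2 relative to T1, CD14 fell by 2.33 (SE 0.369, limma adjusted p = 0.000159) and CD86 fell by 1.46 (SE 0.218, adjusted p = 8.66e-05). SIRPA and ITGAM rose, by 0.62 (SE 0.173) and 0.46 (SE 0.159), and S100A12 differed by -0.10 (SE 0.157). The summed intensity of the 6 markers ran from 118426 to 223504 in prednisolone T2, 133903 to 269704 in prednisolone T1, 143108 to 233428 in control T2 and 92256 to 218131 in control T1 animals, and is mostly S100A12. CD14 fell by 2.06 and CD86 by 1.30 without animals 28 and 32, SIRPA rose by 0.63, and ITGAM did not pass (0.46, adjusted p = 0.0554). At T1 CD14 differed by 1.44 between prednisolone and control animals (SE 0.319, adjusted p = 0.0556), and it passed in 1 fit of all groups with the animal as a block (adjusted p = 0.0144), as did MSR1 (0.87, adjusted p = 0.0200). At T2 CD14 and CD86 were lower in prednisolone animals, with differences of -1.11 and -0.63. CD86 did not pass there in the fit of all groups with the block (adjusted p = 0.117). Median SIRPA, ITGAM and MSR1 lay the other way, at 18499.3, 58.1 and 129.4 in prednisolone T2 and 13010.5, 42.8 and 92.4 in control T2 animals. None of them passed there. Median S100A12 was 147260.6 and 152076.4. The median difference over the 6 markers at T2 was 0.07, beside 0.04 over all genes. The part of monocyte number in the ligand values was not tested.

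Markers of other blood cells were counted in the same way. Of all genes, 18.6% passed between prednisolone and control animals at T2, and 38.0% between the times in prednisolone animals. The counts of passing markers stand beside these shares. Of 7 neutrophil markers tested, 1 passed, CATHL5, a cathelicidin peptide, which rose by 0.74 (SE 0.235, limma adjusted p = 0.0210) at T2 relative to T1 in prednisolone animals, and not without animals 28 and 32 (0.74, adjusted p = 0.0958). The summed intensity of the 7 ran from 571 to 1653 in prednisolone T2, 735 to 1432 in prednisolone T1, 564 to 1654 in control T2 and 588 to 1449 in control T1 animals. None of the 3 platelet or 3 erythroid markers tested passed in any comparison without the block. Among 7 T cell markers, CD2 was higher in prednisolone animals at T2 by 0.32 (SE 0.100, adjusted p = 0.0367), and 4 rose at T2 relative to T1 in prednisolone animals, CD6 by the most, 0.81 (SE 0.176). Of those 4, 2 passed without animals 28 and 32, CD2 and CD6. Of 2 B cell markers CR2 rose over the same interval by 0.78 (SE 0.209), while median CD79A was 16545.7 at T2 and 17283.5 at T1. Of 7 natural killer and cytotoxic markers NCR1 was higher at T2 in prednisolone than in control animals by 0.70 (SE 0.225, adjusted p = 0.0408). NCR1 was dim, with group medians from 28.5 to 51.9. Over the 7 the median difference at T2 was -0.14, beside 0.04 over all genes. Neither CD2 nor NCR1 passed at T2 in 1 fit of all groups with the animal as a block (adjusted p = 0.0607 and 0.0809), and NCR1 and KLRK1 then passed over time in prednisolone animals (0.76 and 0.58), as did the erythroid HBB (0.82).

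Of 33 other chemokine ligands listed, 4 are on the array under a name and 2, CCL8 and XCL1, were bright enough to test. CCL8, another monocyte attractant encoded close to CCL2, had medians of 443.1 in prednisolone T2, 2876.8 in prednisolone T1, 509.4 in control T2 and 795.3 in control T1 animals. It fell by 2.44 at T2 in prednisolone animals (SE 0.868, limma adjusted p = 0.0354), and XCL1 passed in none of the 5 comparisons. The highest CCL8 values, 22652.6, 14336.5 and 9815.2, were those of prednisolone T1 animals 28, 27 and 32, and without animals 28 and 32 CCL8 did not pass (-1.61, adjusted p = 0.211).

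Of 23 chemokine receptors, 9 were tested, CXCR1 of the neutrophil ligands and CCR1 of CCL3 and CCL5 among them, and neither of these passed in any of the 5 comparisons with all animals. At T2, 2 of the 9 were lower in prednisolone animals and none higher, beside 18.6% of all genes in either direction: CCR7, which guides lymphocytes to lymph nodes, at -0.69 (SE 0.142, limma adjusted p = 0.00381), and CXCR5, which guides B cells to follicles, at -0.56 (SE 0.168, adjusted p = 0.0316). CXCR5 passed neither in 1 fit of all groups with the animal as a block (adjusted p = 0.0658) nor without animals 28 and 32 (0.0604). In prednisolone animals 3 fell at T2 relative to T1 and none rose, beside 38.0% of all genes: CXCR4, the receptor of CXCL12, by 1.44 (SE 0.145, adjusted p = 3.89e-06), CCR7 by 1.30 (SE 0.213) and CXCR5 by 0.96 (SE 0.216). The same 3 had negative interactions that passed. These 3 and CCR1 fell over time without animals 28 and 32, and CXCR3 rose. CXCR4 also passed at T1 with the block, higher in prednisolone animals (0.88, adjusted p = 0.0150), and CCR8 over time (0.45, adjusted p = 0.0265). CXCR5 was dim, with group medians from 30.3 to 56.2.

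Of 35 genes that act upstream of the ligands, 21 were tested. This list too was chosen with earlier results known, so its p-values are not independent of that choice. At T2, 7 were higher and 3 lower in prednisolone animals, beside 18.6% of all genes in either direction. The AP-1 subunits FOS and JUN were higher by 1.77 (SE 0.155, limma adjusted p = 1.65e-05) and 0.84 (SE 0.086, adjusted p = 5.57e-05). IKBKG, the regulatory subunit of the kinase that releases NF-kB, was higher by 0.40 (SE 0.072). ZFP36, which speeds the decay of cytokine mRNA, was higher by 0.58 (SE 0.105). The 3 lower genes were TNFRSF1B, CHUK and CD14. CHUK, another subunit of that kinase, also fell over time in prednisolone animals, and the subunit IKBKB passed in neither comparison. Without animals 28 and 32, CHUK differed at T2 by -0.28 (limma adjusted p = 0.0282). FOS had lowest, median and highest intensities of 9836.7, 16689.3 and 21007.4 in prednisolone T2 and 3990.8, 4631.6 and 5495.3 in control T2 animals. In prednisolone animals 5 of the 21 rose at T2 relative to T1, JUN, IKBKG, MYD88 and FOS at the smallest p, and 9 fell, beside 38.0% of all genes. The cytokine genes among the 9 are named here after their values were seen. TNF fell by 1.51 (SE 0.390, adjusted p = 0.00631) and IL1B fell by 1.53 (SE 0.540, adjusted p = 0.0344). IL6 had a value in only 4 of 8 animals at each time, near background at T2 (3.1 to 14.9, against 29.9 to 803.6 at T1), and with the animal as a block it did not pass (adjusted p = 0.0839), while IL1A (-1.38) and IFNG (0.59) then did. With animals 28 and 32 left out, 5 rose and 5 fell, TNF among them (-1.35) and IL1B not (-1.12, adjusted p = 0.0860). None of the 21 passed at T1 or between the times in control animals in the fits of 1 comparison each. CD14 and IKBKG (-0.23, adjusted p = 0.0358) passed at T1 in the fit of all groups with the block. The median difference over the 21 was 0.01 at T2 and -0.26 over time in prednisolone animals, beside 0.04 and 0.04 over all genes.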

How the data were processed

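Total RNA of bovine lymphocytes was measured on 30 single-colour Agilent arrays. The intensity values deposited by the authors are linear, from 1.62 to 1067622, with 17.16% of cells null. Each slide was scanned at 2 sensitivity settings and extracted with Feature Extraction 9.5, per the series text, which detrended the signal and subtracted background, and R 2.11.1 is listed in the submitters' processing notes. The sources used here do not give the normalization between arrays or the rule behind null cells. Of the 44407 features, 6954 carry 1 gene in the platform annotation and 37453 none. Symbols were updated through accessions (5432 features) or synonyms (158), from RefSeq's ARS-UCD2.0 gene table, which also gave the gene order.

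Intensities were divided by each array's 75th percentile over the 23055 features that had no null cell (moving no array by more than 0.05 log2 units), raised to a floor of 2.52 and put on the log2 scale. The design allowed for log2 values, and the deposited values were linear. A gene is the mean of its features within 0.25 log2 units of the brightest. The lowest 25% of genes by mean intensity, and those measured on fewer than 4 arrays in any group, were not tested. Differences were fitted with limma 3.58.1 (lmFit, then eBayes, under R 4.3.3). P-values are two-sided and adjusted by Benjamini and Hochberg's method over 2403 genes, with a threshold of 0.05. The procedure was tested on simulated data. Null arrays of a gene were dropped from its fit.

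The ligands and the gene lists were chosen with earlier results of these data known. The genes named are the 7 ligands, the 3 genes with the highest Pearson r with each over at least 20 arrays, and up to 4 passing members per list and comparison. The same animal was sampled at both times: deviations from group means correlated within an animal at 0.199 to 0.663 (median 0.418), and each of the 15 T1 arrays correlated best, among the T2 arrays of its treatment, with that of the same number. The main fits of comparisons that span both times treated the 2 arrays of an animal as independent. Alternatives with the animal as a block were fitted for every comparison that spans both times. Nothing in the labels names a slide or hybridisation batch, so none was modelled. Plots were drawn with matplotlib 3.10.9 from tables made with pandas 2.3.3 and numpy 2.4.6 (Python 3.11.15).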

Additional observations from a re-analysis of the deposited data

Results flagged for a closer look

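The difference between prednisolone and control animals was not the same at T2 and T1 for 2 ligands, by limma's test of the interaction. For CCL2 it was -6.57 log2 units (adjusted p = 0.00229), lower in 5 of the 5 prednisolone animals with both values and in 4 of 7 control animals at T2. For CXCL5 it was -3.76 (adjusted p = 0.00908), lower in 8 of 8 prednisolone and 3 of 7 control animals at T2. Both tests contain the T2 contrast with which the ligands were chosen, so these p-values are not independent of that choice. Single animals stood far from the rest of their group in 2 of the 28 sets of ligand values examined, where chance alone marks about 1 set in 20. CCL3 in prednisolone T2 was lowest in animal 29, at a log2 intensity of 8.32 with the next at 8.93. GRO1 in control T1 was lowest in animal 17, at 12.24 with the next at 13.97.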

How the results depend on the processing

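Over the alternatives other than leaving out 1 animal, 329 recomputed differences of single ligands kept their direction and their side of the threshold, 11 changed sign, 5 came to pass and 5 no longer passed. Some alternatives could not move a ligand's difference. The mean of all features and dropping the intensity filter used the same ligand values. The floor of 16 and null cells at the floor could move CCL2 alone. The count of 329 is therefore no measure of robustness. At T1 the 8 genes called became 231 in 1 fit of all groups with the animal as a replicate block, 246 in that fit without the block, 118 after quantile normalization, 5 with the brightest feature alone, 2 with no filter on mean intensity, and 0 without animals 28 and 32, with null cells at the floor, or without the 5 arrays of discordant duplicate spots (the last chosen after seeing the data). No ligand passed at T1 under any of these. Ligands called at T2 numbered 3, and 1 in 1 fit of all groups with no replicate block or without animals 28 and 32. Paired by animal, control genes called between T2 and T1 numbered 3, against 0 unpaired, and 10 after quantile normalization. The interaction count of 436 was 224 without animals 28 and 32 and 239 without the discordant arrays, where CCL2 and CXCL5 still passed. The block changed no call of a ligand over time or in the interaction other than those of CCL5 and GRO1. Signs turned for small differences. Without animals 28 and 32 these were CXCL8 (-0.34) and CXCL2 (-0.67) at T1, CXCL8 over time in prednisolone animals (0.060), and CCL5 (0.10) and CXCL8 (0.12) in the interaction. CXCL2 at T1 was -0.071 after quantile normalization and -0.15 with the brightest feature, CCL5 in the interaction was 0.0089 and 0.087, and without the discordant arrays CCL3 and CXCL8 at T1 were 0.27 and -0.052. The cause of these changes was not tested. Quantile normalization put the median difference of all genes at -0.12 between the times in controls (0.04 as reported) and at 0.16 in the interaction (0.003 as reported), and gave 15 higher and 103 lower genes at T1 (3 and 5 as reported) and 361 and 94 in the interaction (225 and 211). Leaving out each animal in turn, chosen after seeing the data, gave 0 to 109 genes at T1 (0 without animal 21, 28, 31 or 32, 1 without 22, 23 or 30, 2 without 18, 20 without animal 20, 34 without 25, 58 without 26 and 109 without 17), 0 to 3 between the times in controls (3 without animal 17), 319 to 477 at T2 and 332 to 472 in the interaction. Of the ligands, 2 to 4 were then called at T2, 3 to 4 over time in prednisolone animals and 2 to 3 in the interaction. Differences that turned sign ranged from -0.38 to 0.25 for CCL3, -0.31 to 0.31 for CXCL2 and -0.061 to 0.309 for CXCL8 at T1, -0.28 to 0.11 for CXCL8 at T2, -0.030 to 0.384 for CXCL2 in prednisolone animals, -0.82 to 0.26 for CCL2, -0.15 to 0.53 for CXCL5 and -0.26 to 0.16 for CXCL8 in controls, and -0.223 to 0.029 for CCL5 and -0.478 to 0.0031 for CXCL8 in the interaction. At intensities near 10, where CCL2 lay in prednisolone T2 animals, signal over background limits the size of a difference.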
